A study of Mus musculus with 8 samples.

Results

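The 10 genes described here encode sensors of DNA and other nucleic acids in the cytosol and the proteins of inflammasome and necroptotic death: Aim2, Zbp1, Mb21d1, Tmem173, Pycard, Casp1, Casp8, Ripk1, Ripk3 and Mlkl. They were chosen by symbol for these roles, from 23929 gene symbols in the deposited tables, and with Aim2 and Ripk3 already known to differ between the pair of CBE-deleted lines. All 10 were found, each as a single entry, and 8 of them passed the filter for testing (FPKM of 1 or more in at least 2 libraries), as did 10479 genes in all. Mb21d1 and Pycard did not pass.

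RNA came from untreated mouse pro-B lines, B cell precursors at the stage of IgH recombination, derived from bone marrow of strain 129SV. The Eµ-/- line lacks the intronic enhancer of the immunoglobulin heavy chain (IgH) locus. The lines CBE-/- (1) and CBE-/- (2), called CBE line 1 and CBE line 2, carry the genotype label IGCR1-/- and lack CTCF-binding elements of the intergenic control region of that locus. The WT line is labelled wild type, and no shared allele or agent is named for the 4 lines. Each line gave 2 poly(A) RNA libraries, and each genotype other than IGCR1-/- is represented by 1 line, so genotype and line cannot be told apart. Whether the libraries of a given line stem from separate cultures is not stated, so the p-values here reflect spread among libraries, possibly technical only.

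Double-stranded DNA in the cytosol is read by several routes. The enzyme cGAS, encoded by Mb21d1, makes a cyclic dinucleotide that activates STING, encoded by Tmem173, and leads to interferon. AIM2 binds the DNA itself and, through the adaptor ASC (Pycard), gathers caspase-1 (Casp1) into an inflammasome, which ends in pyroptosis, while ZBP1 passes a signal from Z-form nucleic acids to the kinase RIPK3. RIPK3 phosphorylates MLKL, which breaks the plasma membrane in necroptosis, and RIPK1 and the inhibitory protease caspase-8 sit upstream. Pro-B cells also cut their own DNA, at the antigen receptor loci, in the nucleus.

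From the deposited intervals, each library is estimated to hold 31.3 to 49.5 M reads. Between libraries of the same line, log2(FPKM + 1) correlated with r of 0.978 to 0.992 across the genes tested, and between different lines with 0.926 to 0.964. Of 10 pro-B markers, 9 reached 1 FPKM and Kit was listed at 0 in all 8 libraries. The 4 T cell, 2 plasmacytoid dendritic and 4 stromal markers did not reach 1 FPKM in any library. Of 6 myeloid markers, only Lyz2 and Itgam did, and the myeloid sum was 2.01 to 3.15 FPKM in the Eµ-deleted line, 3.79 to 8.85 FPKM in CBE line 1, 1.61 to 2.42 FPKM in CBE line 2, and 3.28 to 6.71 FPKM in WT. The myeloid markers Csf1r, Cd14, Emr1 and Mpo were at or near 0 throughout, with a highest value of 0.0360 FPKM for Csf1r in WT replicate 1. The 2 NK markers were Ncr1, at 0 in all libraries, and Klrb1c, whose level was 0.388 to 1.09 FPKM in the mutant lines and 1.76 and 2.39 in WT. The part of these markers in the results was not tested.

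The promoter windows of Aim2 and Ripk3 are shown because these 2 genes followed the same order over the 4 lines. Each runs from 250 bases before the start of the gene to 50 bases after it, in RefSeq on GRCm38, a different build from the mm9 of the expression tables. Aim2 lies at chr1:173420354-173420653, plus strand, and Ripk3 at chr14:55788808-55789107, minus strand, both printed 5′ to 3′ along the gene. Capitals mark the motif GAGGAAGT, bound by the myeloid and B cell factor PU.1 and related ETS proteins.
Aim2 promoter: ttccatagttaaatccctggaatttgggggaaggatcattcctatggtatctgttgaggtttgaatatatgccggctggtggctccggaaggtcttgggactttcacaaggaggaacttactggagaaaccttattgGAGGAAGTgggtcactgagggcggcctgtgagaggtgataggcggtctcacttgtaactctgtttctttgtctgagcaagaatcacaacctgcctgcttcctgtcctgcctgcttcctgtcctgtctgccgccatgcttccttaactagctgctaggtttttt
Ripk3 promoter: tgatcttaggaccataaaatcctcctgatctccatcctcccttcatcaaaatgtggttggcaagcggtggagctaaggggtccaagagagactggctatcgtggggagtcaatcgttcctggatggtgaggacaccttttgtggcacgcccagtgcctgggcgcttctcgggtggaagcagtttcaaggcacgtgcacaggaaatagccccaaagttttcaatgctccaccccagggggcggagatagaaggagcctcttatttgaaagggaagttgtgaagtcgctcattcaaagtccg
The search also covered the interferon-stimulated response element (GAAA, any pair of bases, then GAAA) and the STAT site TTCNNNGAA, and each motif was sought on both strands. The Aim2 window held GAGGAAGT once, beginning at position -113 counted from the gene start, and no match to the other motifs. The Ripk3 window held none of the 3 motifs. Windows were found for 8 members, with 2 for Ripk1, and not for Zbp1 or Tmem173. Among the others, Pycard had 1 match to GAGGAAGT, and the second Ripk1 window had 1 match to the interferon-stimulated element and 2 to TTCNNNGAA, one of which overlaps the first. Of all 32851 promoter windows of this length, 3.20% held GAGGAAGT, 3.44% the interferon-stimulated element and 8.30% TTCNNNGAA. The Aim2 window had 5 CG dinucleotides and that of Ripk3 10, against a median of 7 over all windows. A match says only that the letters are present.

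Aim2 had the largest ratio of highest to lowest library among the 8 members tested. It was at 10.4 and 11.3 FPKM (fragments per kilobase of transcript and per M mapped reads) in the Eµ-deleted line, 22.3 and 19.8 FPKM in CBE line 1, 0.0229 and 0.0631 FPKM in CBE line 2, and 1.67 and 1.78 FPKM in WT. The lines did not overlap, in the order CBE line 1, Eµ-deleted, WT, CBE line 2. The deposited intervals imply 3 and 9 reads for Aim2 in the libraries of CBE line 2, where 3 reads are worth 0.0229 and 0.0210 FPKM, so the transcript was close to the detection limit in that line. Its mean level in CBE line 1 was 489 times that in CBE line 2 (95% interval 280.1 to 947 for counting error of the low line only). This difference is the one for which the gene was chosen and is given without a test. Aim2 maps to chromosome 1, 175350734 to 175396167 in mm9, as the files give it.

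In the Eµ-deleted line Aim2 rose by 2.12 in log2(FPKM + 1) over WT (SE 0.10, limma adjusted p = 2.96e-05), with both Eµ-deleted libraries above both WT libraries, and the call held with each library left out. Differences are on the log2(FPKM + 1) scale throughout, where changes of weakly expressed genes come out too small. In bulk RNA, fewer cells of a type and less RNA per cell cannot be told apart. Against the mean of the CBE lines the difference was 1.31 (SE 0.09, limma adjusted p = 0.000201), although the Eµ-deleted level lay between those of the CBE lines. The mean of the CBE lines exceeded WT by 0.81 (SE 0.09, limma adjusted p = 0.000938), a mean of lines on opposite sides of WT. That sign turned with a pseudocount of 0.1, which gave -0.079 (limma adjusted p = 0.756). The relatives of Aim2 in the same family of DNA-binding proteins, Ifi203, Ifi204, Pyhin1, Mnda and Mndal, were tested too. None of these 5 genes was called by limma in any of the 3 comparisons, and those at an unadjusted p under 0.05 numbered 1 in the CBE lines against WT, 1 in the Eµ-deleted line against WT and 3 in Eµ-deleted cells against the CBE lines. Mndal, for example, was at 46.9 and 58.6 FPKM in the Eµ-deleted line, 73.4 and 67.7 FPKM in CBE line 1, 69.8 and 66.6 FPKM in CBE line 2, and 66.6 and 66.0 FPKM in WT. This group of relatives was chosen after their values were seen.

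**Figure D1:**
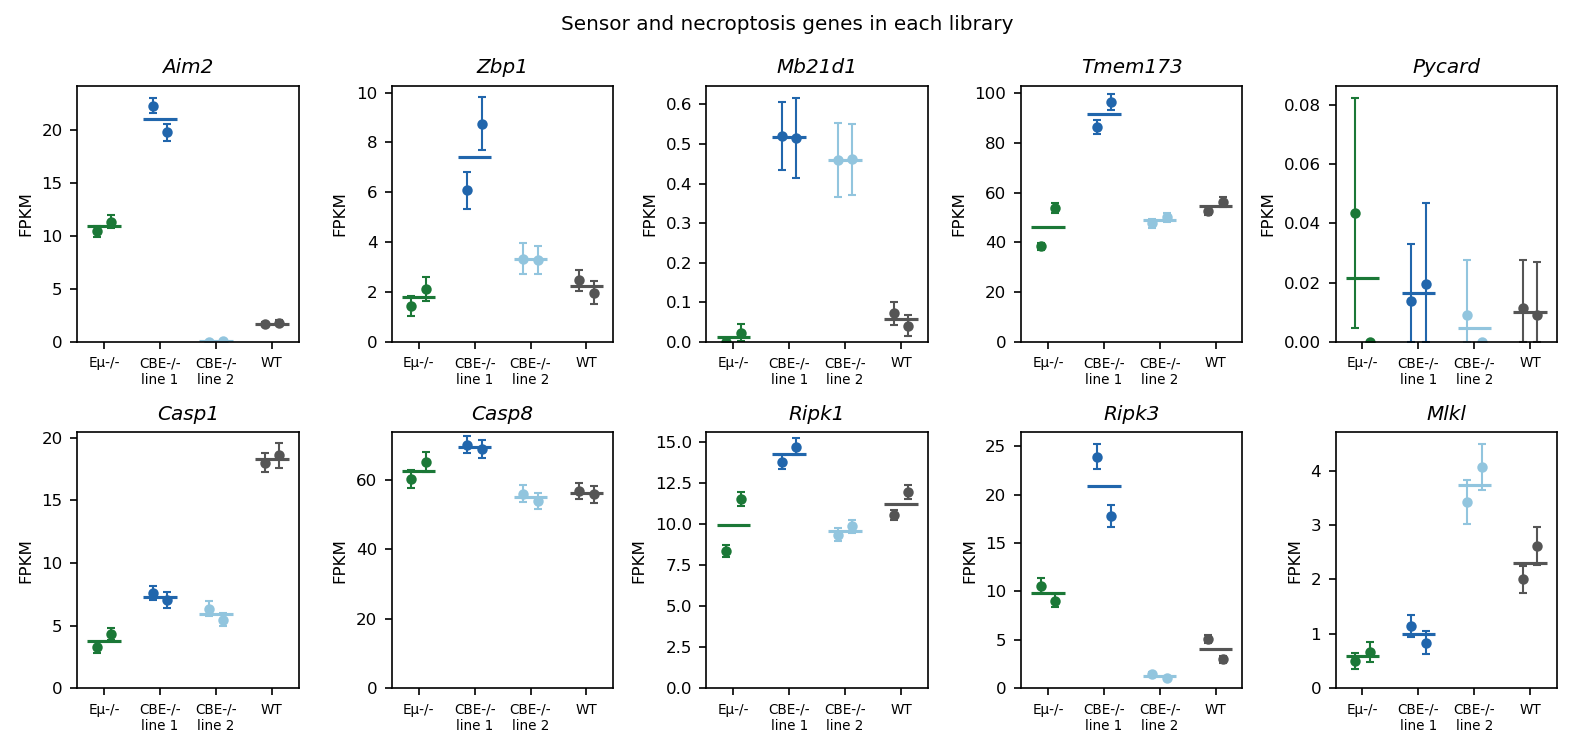
FPKM of the 10 genes in each of the 8 libraries, by line. Points are libraries with the deposited interval as error bar, horizontal lines are line means, and each panel has its own axis from 0. Aim2 and Ripk3 are highest in CBE line 1 and lowest in CBE line 2, Mlkl is highest in CBE line 2, and Casp1 is highest in WT, where it averaged 18.3 FPKM.

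Zbp1, the sensor of Z-form nucleic acids, was at 1.44 and 2.12 FPKM in the Eµ-deleted line, 6.08 and 8.76 FPKM in CBE line 1, 3.33 and 3.28 FPKM in CBE line 2, and 2.47 and 1.98 FPKM in WT. All 4 CBE libraries lay above both WT and both Eµ-deleted libraries, and the Eµ-deleted and WT libraries overlapped. The CBE lines exceeded WT by 0.90 (SE 0.16, limma adjusted p = 0.00959). That call was lost without WT replicate 2, where the difference was 0.79 (limma adjusted p = 0.103). The Eµ-deleted line lay below the CBE lines by -1.12 (SE 0.16, limma adjusted p = 0.00646). It differed from WT by -0.22, with a 95% interval of -0.68 to 0.23 (limma adjusted p = 0.447). Zbp1 had 53.5 to 270.3 implied reads per library.

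Mb21d1, which encodes cGAS, stayed below 1 FPKM in all libraries and was therefore left out of the main tests. The unfiltered fit given below lies outside that rule. Its level was 0 and 0.0233 FPKM in the Eµ-deleted line, 0.520 and 0.515 FPKM in CBE line 1, 0.459 and 0.461 FPKM in CBE line 2, and 0.0726 and 0.0410 FPKM in WT. All 4 CBE libraries were above the other 4, and unlike Aim2 the gene had similar levels in both CBE lines. The mean of the CBE lines was 8.60 times that of WT (95% interval 6.15 to 12.4 for counting error in WT) and 42.0 times that of the Eµ-deleted line (18.0 to 129 for counting error on its 5 reads). When no filter was applied, the CBE lines exceeded WT by 0.49 in log2(FPKM + 1) (limma adjusted p = 4.28e-05 over 16290 genes), and the Eµ-deleted line lay below the CBE lines by -0.56 (limma adjusted p = 4.92e-05) and differed from WT by -0.063 (limma adjusted p = 0.0872).

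Tmem173, which encodes the cGAS-dependent receptor STING, was abundant. Its level was 38.4 and 53.9 FPKM in the Eµ-deleted line, 86.5 and 96.6 FPKM in CBE line 1, 47.8 and 50.1 FPKM in CBE line 2, and 52.7 and 56.4 FPKM in WT. CBE line 1 stood above all other libraries, and the Eµ-deleted libraries spanned those of CBE line 2 and part of the WT range. Against WT the CBE lines differed by 0.29 (95% interval -0.042 to 0.63, limma adjusted p = 0.191) and the Eµ-deleted line by -0.25 (95% interval -0.64 to 0.13, limma adjusted p = 0.306). Neither difference passed the threshold. The first was past it without Eµ-deleted replicate 1 (0.0398) or 2 (0.0394), and the second without Eµ-deleted replicate 2 (-0.49, adjusted p = 0.0360), but it was -0.015 without Eµ-deleted replicate 1 (0.932). Eµ-deleted cells against the CBE lines gave -0.55 (limma adjusted p = 0.0511), with -0.79 and an adjusted p of 0.00941 without Eµ-deleted replicate 2, -0.31 and 0.0778 without Eµ-deleted replicate 1, and 0.0398 with median-of-ratios scaling. Per length, its mean level in WT was 54.5 FPKM, against 0.0568 FPKM for Mb21d1, whose product acts before it.

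Pycard, which encodes the ASC adaptor between AIM2 and caspase-1, was barely detected, with 1 library above the level of 3 reads. It was at 0.0434 and 0 FPKM in the Eµ-deleted line, 0.0137 and 0.0194 FPKM in CBE line 1, 0.00920 and 0 FPKM in CBE line 2, and 0.0114 and 0.00896 FPKM in WT. These values stand for 0 to 5 implied reads per library, and 3 reads were worth 0.0172 to 0.0292 FPKM. Differences between lines were not detectable at this depth, and no fold is given. The CBE line 1 libraries, with the highest Aim2 level, had about 2 Pycard reads each.

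Casp1, which encodes the protease of the inflammasome, was highest in WT. It was at 3.27 and 4.33 FPKM in the Eµ-deleted line, 7.59 and 7.05 FPKM in CBE line 1, 6.36 and 5.48 FPKM in CBE line 2, and 18.0 and 18.6 FPKM in WT. The 4 lines did not overlap, in the order WT, CBE line 1, CBE line 2, Eµ-deleted. Casp1 fell by 1.35 in the CBE lines (SE 0.12, limma adjusted p = 0.000327) and by 2.02 in the Eµ-deleted line (SE 0.13, limma adjusted p = 0.000127) relative to WT, and both calls held in all 8 leave-outs. The Eµ-deleted line was below the CBE lines by -0.67 (SE 0.12, limma adjusted p = 0.0128), a call lost without CBE line 2 replicate 1 (-0.62, adjusted p = 0.0575).

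Casp8, the apoptotic initiator protease that holds necroptosis in check, had high and similar levels in all lines. It was at 60.1 and 65.1 FPKM in the Eµ-deleted line, 70.1 and 68.9 FPKM in CBE line 1, 56.0 and 53.9 FPKM in CBE line 2, and 56.7 and 55.7 FPKM in WT. CBE line 1 was highest, and the libraries of CBE line 2 and WT overlapped. The differences were 0.13 for the CBE lines (95% interval -0.040 to 0.31, limma adjusted p = 0.247) and 0.15 for the Eµ-deleted line (-0.050 to 0.35, limma adjusted p = 0.244) against WT, and 0.018 (-0.16 to 0.19, limma adjusted p = 0.898) for Eµ-deleted cells against the CBE lines. Ripk1, the kinase below death receptors, likewise passed the threshold in none of these comparisons. It was at 8.40 and 11.5 FPKM in the Eµ-deleted line, 13.8 and 14.7 FPKM in CBE line 1, 9.36 and 9.87 FPKM in CBE line 2, and 10.6 and 12.0 FPKM in WT. Its differences from WT were 0.056 in the CBE lines (95% interval -0.25 to 0.37, limma adjusted p = 0.810) and -0.17 in the Eµ-deleted line (-0.53 to 0.18, limma adjusted p = 0.444), and that of Eµ-deleted cells from the CBE lines was -0.23 (-0.54 to 0.080, limma adjusted p = 0.305). These intervals exclude a 2-fold change on the FPKM + 1 scale in either direction.

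Ripk3, the kinase that activates MLKL, followed the order of Aim2. It was at 10.6 and 9.06 FPKM in the Eµ-deleted line, 23.9 and 17.8 FPKM in CBE line 1, 1.45 and 1.02 FPKM in CBE line 2, and 5.07 and 2.99 FPKM in WT. No lines overlapped, in the order CBE line 1, Eµ-deleted, WT, CBE line 2. The deposited intervals of the 2 WT libraries did not overlap each other, at 4.65 to 5.49 and 2.62 to 3.37 FPKM, as was also the case for Ripk3 in the Eµ-deleted line and CBE line 1. Such pairs of intervals were common among the genes tested, at 64.7% in the Eµ-deleted line and 58.7% in CBE line 1. The shares were 38.7% in CBE line 2 and 38.8% in WT. Of the pairs of a member and a line, 13 of 40 were of this kind. Ripk3 rose by 1.13 in the Eµ-deleted line over WT (SE 0.24, limma adjusted p = 0.0174). The call was lost without Eµ-deleted replicate 1 (adjusted p = 0.0521) or 2 (0.0518), without WT replicate 2 (0.83, adjusted p = 0.0961), and with only the libraries compared (0.0631). The mean of the CBE lines, which lie on either side of WT, differed from WT by 0.50 (limma adjusted p = 0.138). The Eµ-deleted line differed from that mean by 0.64 (limma adjusted p = 0.0986). The difference of the CBE lines from WT was 0.19 without WT replicate 2 (adjusted p = 0.683) and 0.80 without WT replicate 1 (0.0755), and it passed the threshold with a pseudocount of 5 (0.0376).

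**Figure D2:**
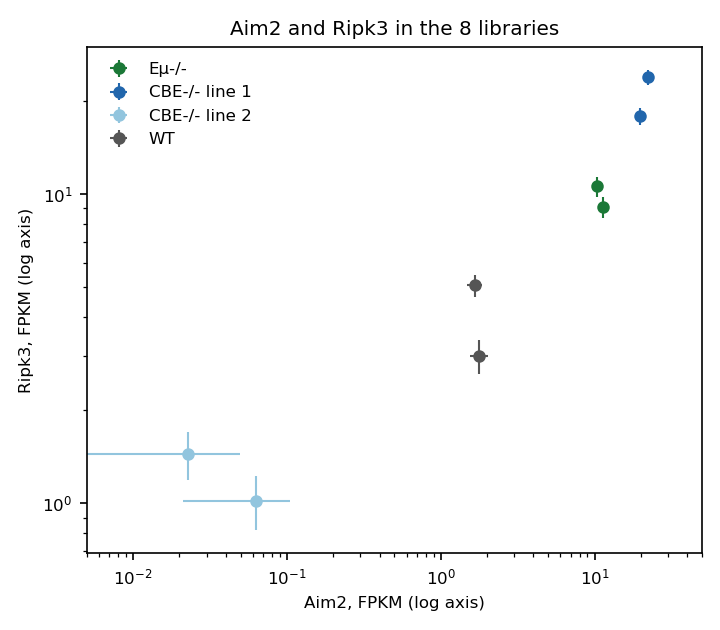
Ripk3 against Aim2 in the 8 libraries, FPKM on log axes, with the deposited intervals as bars (the interval of CBE line 2 replicate 1 for Aim2 reaches 0 and is cut at the axis). The lines lie in the same order for both genes, with CBE line 2 at about 1 FPKM of Ripk3 and under 0.1 FPKM of Aim2.

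Mlkl, which encodes the pore-forming substrate of RIPK3, was highest where Ripk3 was lowest. It was at 0.504 and 0.672 FPKM in the Eµ-deleted line, 1.15 and 0.839 FPKM in CBE line 1, 3.42 and 4.07 FPKM in CBE line 2, and 2.00 and 2.61 FPKM in WT. The lines did not overlap, in the order CBE line 2, WT, CBE line 1, Eµ-deleted. In the Eµ-deleted line Mlkl was lower than in WT by -1.05 (SE 0.14, limma adjusted p = 0.00316) and lower than in the CBE lines by -0.95 (SE 0.12, limma adjusted p = 0.00380), and both calls held in all leave-outs. The mean of the CBE lines differed from WT by -0.10 (95% interval -0.40 to 0.19, limma adjusted p = 0.615). Across the 8 libraries, log2(FPKM + 1) of Mlkl correlated with that of Ripk3 at r = -0.874 and with that of Aim2 at r = -0.913, as a description, since the 8 points share 4 lines.

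Between CBE line 1 and CBE line 2, the contrast by which the genes were chosen, differences are given without a test. They were 4.40 for Aim2, 3.28 for Ripk3, 0.95 for Zbp1, 0.89 for Tmem173, 0.53 for Ripk1, 0.33 for Casp8, 0.27 for Casp1 and -1.25 for Mlkl in log2(FPKM + 1). Of the 8 members tested, 3 (Aim2, Ripk3 and Mlkl) differed by 2-fold or more on that scale, as did 4.35% of all genes tested. For Aim2, Tmem173, Ripk1 and Ripk3, both libraries of CBE line 1 were above both WT libraries and both of CBE line 2 below them, an arrangement found in 3.29% of all genes tested. Mlkl alone had the converse arrangement, found in 3.62%. Nothing is read from these shares, since they use the contrast behind the choice.

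Of the 8 members tested, 3 passed the threshold in the CBE lines against WT (Aim2 and Zbp1 higher, Casp1 lower), where 22.3% of all genes did, 12.5% higher and 9.78% lower. Against WT, 4 passed in Eµ-deleted cells (Aim2 and Ripk3 higher, Casp1 and Mlkl lower), against 21.8% of all genes, 11.3% higher and 10.4% lower. Against the CBE lines, 4 passed in the Eµ-deleted line (Aim2 higher, Zbp1, Casp1 and Mlkl lower), against 12.4% of all genes, 5.16% higher and 7.25% lower. The Aim2 calls that use the CBE lines rest on a mean of lines on opposite sides of WT and of the Eµ-deleted line. The sign of Aim2 in the CBE lines against WT turned with a pseudocount of 0.1. The median log2 difference of the members was 0.21, -0.20 and -0.39 in these comparisons, and that of all genes tested 0.029, 0.0060 and -0.010. The comparisons share libraries, and Casp1 was the only member lower than WT in all 6 mutant libraries with a call in both comparisons with WT. Of the 8, 4 (Aim2, Casp1, Ripk3 and Mlkl) had a full order of the 4 lines without overlap, as had 10.4% of all genes tested. A full order needs a difference between the CBE lines, for which Aim2 and Ripk3 were chosen, so nothing is read from this share.

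**Figure D3:**
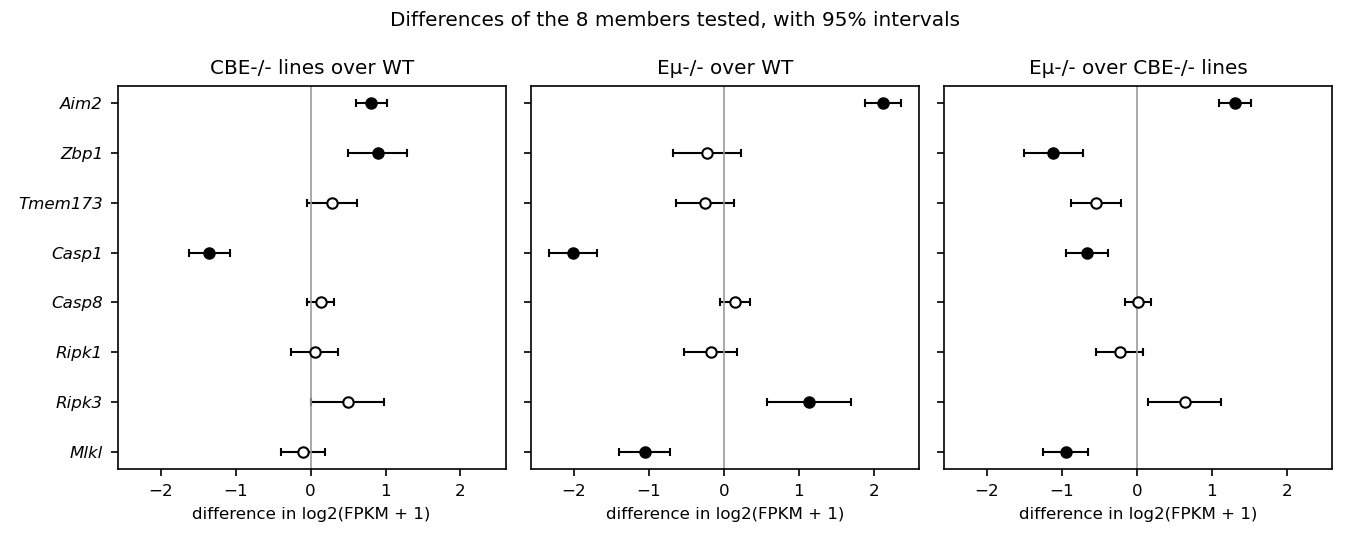
Differences in log2(FPKM + 1) for the 8 members tested, with 95% intervals from limma, in the CBE-deleted lines over WT, the Eµ-deleted line over WT and the Eµ-deleted line over the CBE-deleted lines. Filled points passed the threshold of 0.05 on the adjusted p, and Casp1 is on the lower side in all 3 panels, at -1.35, -2.02 and -0.67.

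Genes most like Aim2 over the 8 libraries were Dlg3 (Pearson r = 0.981), Decr2 (0.979), Ripk3 (0.979) and Kansl2 (0.975), among the 10479 genes tested. Those most like Ripk3 were Shkbp1 (0.979), Aim2 (0.979), Decr2 (0.963) and Ufl1 (0.963). Their ranges differ widely. Dlg3 averaged 2.17 FPKM in the Eµ-deleted line, 2.27 FPKM in CBE line 1, 0.151 FPKM in CBE line 2, and 0.712 FPKM in WT, while Kansl2 averaged 35.7 FPKM in the Eµ-deleted line, 37.6 FPKM in CBE line 1, 28.6 FPKM in CBE line 2 and 29.8 FPKM in WT. In all, 22 genes, or 0.210% of those tested, had the full line order of Aim2 and Ripk3 without overlap. Both genes were chosen for their difference between the CBE lines, which sets the top and bottom of this order. Nothing is therefore read from this share or from the correlations with Aim2 and Ripk3, and the 8 libraries share 4 lines. Among the 28 pairs of members, r ran from -0.913 to 0.979, and 4 pairs reached 0.9 or more, which besides Aim2 with Ripk3 were Aim2 with Casp8 (0.932), Ripk3 with Casp8 (0.930) and Tmem173 with Ripk1 (0.959).

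No expressed neighbour of Aim2 or Ripk3 had their full order of lines without overlap. Within 100000 bases of Aim2 in mm9, 1 of 3 listed genes reached 1 FPKM. This was BC094916, at 12.1 and 11.9 FPKM in the Eµ-deleted line, 31.3 and 16.3 FPKM in CBE line 1, 16.6 and 15.8 FPKM in CBE line 2, and 11.7 and 10.2 FPKM in WT, with CBE line 2 above WT. Around Ripk3 (chromosome 14, 56403831 to 56407694), 5 of 12 listed genes reached that level. Nop9, for example, was at 23.2 and 19.3 FPKM in the Eµ-deleted line, 22.0 and 19.0 FPKM in CBE line 1, 23.4 and 21.5 FPKM in CBE line 2, and 21.9 and 19.8 FPKM in WT, all overlapping. Tgm1 was at 0.816 and 2.03 FPKM in the Eµ-deleted line, 0.734 and 1.503 FPKM in CBE line 1, 0.237 and 0.513 FPKM in CBE line 2, and 0.158 and 0.122 FPKM in WT, with WT lowest where Ripk3 was lowest in CBE line 2. Rabggta, like Ripk3, was lowest in CBE line 2, at 7.70 and 7.82 FPKM. Its other lines overlapped, at 9.17 and 10.1 FPKM (Eµ-deleted), 8.75 and 10.7 FPKM (CBE line 1) and 9.37 and 9.74 FPKM (WT).

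Among 64 further genes of these pathways, in 3 lists, 62 were in the files and 48 passed the filter. The other 2 were not analysed here. Of the 48 tested, 12 passed the threshold in the CBE lines against WT (4 higher, 8 lower), 11 in Eµ-deleted cells against WT (0 higher, 11 lower) and 9 in Eµ-deleted cells against the CBE lines (2 higher, 7 lower). As shares these are 25%, 22.9% and 18.8%, and for all genes 22.3%, 21.8% and 12.4%, so the first pair is near the background. The count of 11 was 4 without WT replicate 1, 5 without WT replicate 2 and 6 with only the libraries compared. The count of 12 was 7 without WT replicate 2, and that of 9 was 3 without either library of CBE line 2 and 6 without Eµ-deleted replicate 2. Genes below the filter reached at most 0.969 FPKM (Irf7, the interferon regulatory factor) and included the inflammasome substrates Il1b (at most 0.0157) and Il18 (0.157).

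In the list of DNA sensor signalling, 2 of 20 genes rose and 3 fell in the CBE lines against WT (median 0.060), and 0 rose and 2 fell both in the Eµ-deleted line against WT (median -0.11) and against the CBE lines (median -0.12). These calls are 25%, 10% and 10% of the list, against 22.3%, 21.8% and 12.4% of all genes, and so near or under the background. Samhd1, a nucleotide hydrolase that limits cytosolic DNA, was at 4.17 and 4.10 FPKM in the Eµ-deleted line, 7.05 and 8.98 FPKM in CBE line 1, 8.59 and 8.20 FPKM in CBE line 2, and 3.93 and 2.93 FPKM in WT. All CBE libraries lay above the others. It rose by 1.06 in the CBE lines over WT (SE 0.13, limma adjusted p = 0.00163) and was lower by -0.84 in the Eµ-deleted line than in the CBE lines (limma adjusted p = 0.00788, or 0.0526 without Eµ-deleted replicate 2). Trim32, a ubiquitin ligase that can act on STING, showed the same arrangement, with 0.79 for the CBE lines over WT (SE 0.08, limma adjusted p = 0.000861) and -0.88 for Eµ-deleted cells against the CBE lines (SE 0.08, limma adjusted p = 0.000892). Banf1, which competes with cGAS for DNA, was called lower in the CBE lines (-0.53) and in the Eµ-deleted line (-0.59) than in WT, and so was Rnaseh2c, an RNase H2 subunit (-0.62 and -0.81). Each of these calls was lost in 3 to 6 of the 8 leave-outs, with limma adjusted p up to 0.185 for Banf1 and 0.248 for Rnaseh2c, and the nuclease gene Dnase2a (-0.48 in the CBE lines) lost its call in 4, up to 0.195.

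In the list of inflammasome and pyroptosis genes, 0 of 10 rose and 4 fell in the CBE lines against WT (median -0.34), 0 rose and 6 fell in the Eµ-deleted line against WT (median -0.72), and 2 rose and 2 fell in Eµ-deleted cells against the CBE lines (median -0.031). These calls are 40%, 60% and 40% of a list of 10 tested genes, against 22.3%, 21.8% and 12.4% of all genes, whose medians were 0.029, 0.0060 and -0.010. The 4 genes called lower in the CBE lines were Naip2, Naip5, Naip6 and Nlrp1b. For Nlrp1b (-0.57), both CBE line 1 libraries (2.95 and 2.47 FPKM) lay above both WT libraries (2.37 and 2.24 FPKM). The Eµ-deleted line had 0.903 and 0.955 FPKM of Nlrp1b, below WT. Of the CBE lines, only CBE line 2 lay below WT, at 0.329 and 0.343 FPKM. The shares are therefore not read as a fall of the whole list. The Naip genes, whose mouse products sense bacterial proteins together with NLRC4, were among the genes that fell. Naip2 was at 1.16 and 0.742 FPKM in the Eµ-deleted line, 1.11 and 1.88 FPKM in CBE line 1, 0.788 and 0.865 FPKM in CBE line 2, and 4.93 and 4.94 FPKM in WT. It was lower than WT in all 6 mutant libraries, by -1.48 in the CBE lines (SE 0.15, limma adjusted p = 0.000650) and -1.62 in the Eµ-deleted line (SE 0.17, limma adjusted p = 0.00106). Naip5 fell by 1.20 in the CBE lines (SE 0.09, limma adjusted p = 0.000145) and by 0.79 in the Eµ-deleted line (SE 0.10, limma adjusted p = 0.00235). Naip6 fell by 0.80 in the mean of the CBE lines (SE 0.08, limma adjusted p = 0.000605), which were unlike each other. It was at 0.0805 and 0.0389 FPKM in CBE line 1 and 0.856 and 0.838 FPKM in CBE line 2. The Eµ-deleted line had 0.971 and 0.780 FPKM of Naip6, and WT 1.39 and 1.47 FPKM. The calls given here for the Naip genes against WT held in all leave-outs. The Naip genes are close copies, however, and reads can be shared between them, so their separate values are uncertain. Naip5 and Naip6 also passed the filter only through WT, since no mutant library reached 1 FPKM for either gene. The filter thus favoured a higher level in WT for both. Nlrp1b and Nlrc4 (0.369 and 0.175 FPKM) were likewise below 1 FPKM in both Eµ-deleted libraries. They passed the filter only through other lines, so the share of falls in the Eµ-deleted line partly reflects the filter. The higher Naip5 level in the Eµ-deleted line than in the CBE lines (0.42, limma adjusted p = 0.0250) was not called in 5 of 8 leave-outs, with adjusted p up to 0.0805. Nlrp3, a sensor of membrane and ion disturbance, was called lower in the Eµ-deleted line than in WT (-1.33, limma adjusted p = 0.0212) and than in the CBE lines (-1.11, limma adjusted p = 0.0346). The call against WT did not hold when WT replicate 1 (adjusted p = 0.114) or 2 (0.107) was left out, and that against the CBE lines in 6 of 8 leave-outs (up to 0.112). Gsdmd, which encodes the pyroptotic pore protein, was at 7.78 and 7.94 FPKM in the Eµ-deleted line, 6.25 and 5.90 FPKM in CBE line 1, 8.53 and 6.80 FPKM in CBE line 2, and 6.31 and 6.38 FPKM in WT, with no call.

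In the list of death receptor and necroptosis genes, 2 of 18 rose and 1 fell in the CBE lines against WT (median 0.024), and 0 rose and 3 fell in the Eµ-deleted line against WT (median 0.025) and against the CBE lines (median 0.022). These calls are 16.7% of the list in each comparison, against 22.3%, 21.8% and 12.4% of all genes, and so under the background in both comparisons with WT. Tnfaip3, the ubiquitin-editing enzyme A20 that restrains RIPK1 and RIPK3 signalling, was at 2.42 and 1.84 FPKM in the Eµ-deleted line, 2.41 and 1.34 FPKM in CBE line 1, 1.79 and 2.25 FPKM in CBE line 2, and 6.59 and 5.36 FPKM in WT. It was lower than WT by -1.25 in the CBE lines (SE 0.18, limma adjusted p = 0.00326, held in all leave-outs) and by -1.16 in the Eµ-deleted line (SE 0.21, limma adjusted p = 0.0101), a call lost without Eµ-deleted replicate 2 (0.0544) or WT replicate 1 (0.0749). Casp6, an executioner protease of apoptosis, was higher in the CBE lines than in WT (1.18, limma adjusted p = 0.0118, or 0.117 without WT replicate 2) and lower in the Eµ-deleted line than in the CBE lines (-1.17, limma adjusted p = 0.0206, lost in 3 leave-outs, up to 0.127). Fadd, the adaptor that binds caspase-8, was lower in the Eµ-deleted line than in WT (-0.52, limma adjusted p = 0.0115, up to 0.102 without a WT library) and than in the CBE lines (-0.40, limma adjusted p = 0.0265, lost in 7 of 8 leave-outs). Birc3, which ubiquitinates RIPK1, was called higher in the CBE lines (0.49, limma adjusted p = 0.0316) but not in 6 of 8 leave-outs (up to 0.214).

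**Figure D4:**
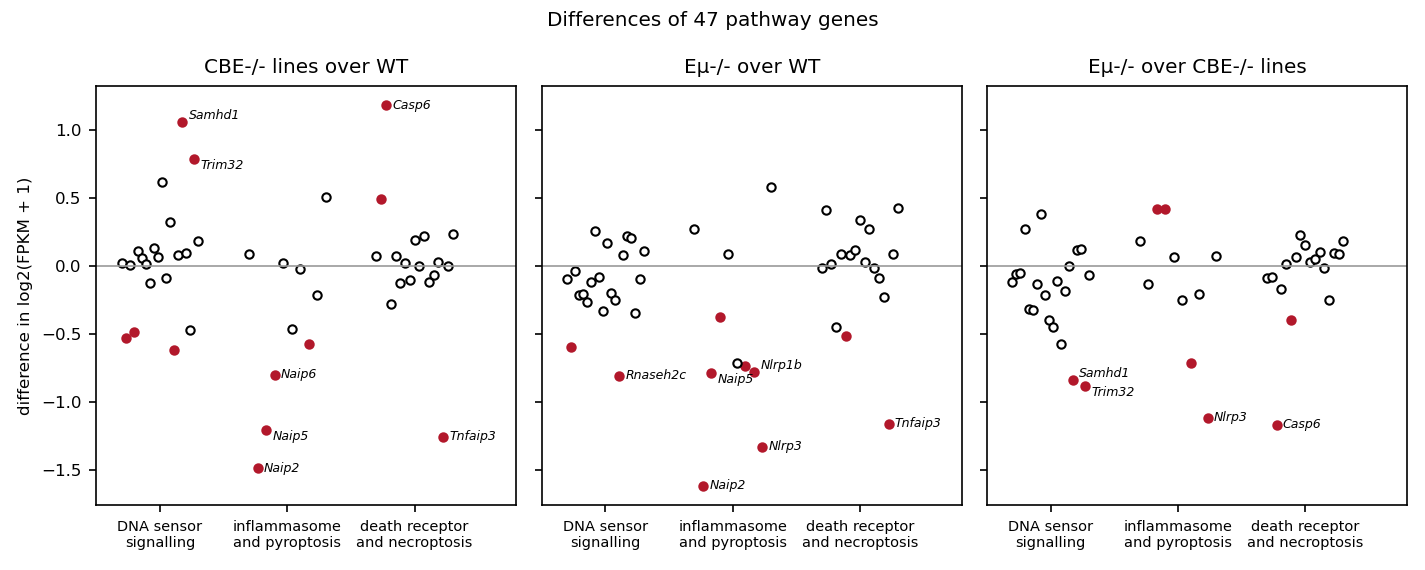
Differences in log2(FPKM + 1) of 47 of the 48 pathway genes tested, by list, in the CBE-deleted lines over WT, the Eµ-deleted line over WT and the Eµ-deleted line over the CBE-deleted lines. Filled red points passed the threshold of 0.05 on the adjusted p, open points did not, and called genes at 0.75 or more in size are named. Naip2 is on the lower side in both panels over WT, at -1.48 in the CBE-deleted lines and -1.62 in the Eµ-deleted line.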

How the data were processed

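Poly(A) RNA from 8 libraries (single 75 bp reads, TruSeq stranded kit, per the labels' protocols) was quantified by the authors, and the deposited values are FPKM with a lower and upper bound and a status per gene, per the file headers. TopHat, Cufflinks and mm9 are named in the submitters' processing notes, whereas the sources used here give neither settings nor use of strand.

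Rows of one symbol were summed (277 symbols), and 21 symbols whose status was not OK somewhere were left out. A gene was tested if at least 2 libraries reached 1 FPKM. The tests used limma 3.58.1 (R 4.3.3) and log2(FPKM + 1), as moderated contrasts with a mean-variance trend over all 4 lines (4 residual and 2.65 prior degrees of freedom) and Benjamini-Hochberg adjustment over 10479 genes, with a threshold of 0.05. The procedure was also run on simulated data with independent noise in each library. That run says nothing of deviations shared by same-numbered libraries or of variation between lines. Reads behind a value were inferred from the deposited bounds, taken as 2 SD, and 56.1% of low values gave a whole number within 0.01, too few for a count test. Intervals and floors of 3 reads cover counting error only.

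The members, the lists, the 3 tested comparisons and the naming rule (all members; up to 3 called rises and 3 falls per list and comparison whose libraries did not overlap; the 4 genes most like Aim2 and Ripk3) were chosen with earlier results of these data known. Each analysis was repeated with a pseudocount of 0.1 or 5, unfiltered, with a filter at mean FPKM 5, with median-of-ratios or quantile scaling, without the trend, on only the libraries compared, with a replicate block and without each library, where a line left with 1 library was assumed to vary like the others. One gene of the pathway lists is included in their counts and not reported here by itself.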

Additional observations from a re-analysis of the deposited data

Results flagged for a closer look

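For 5 members, both libraries of CBE line 1 and both of CBE line 2 lay on opposite sides of the WT libraries, and this difference between the lines was not tested. Aim2 differed from WT by 3.01 in CBE line 1 and, below it, by -1.39 in CBE line 2 on the log2(FPKM + 1) scale. For Ripk3 the values were 2.14 in CBE line 1 against -1.15 in CBE line 2. These are the genes chosen for that difference. Tmem173 differed by 0.736 in CBE line 1 against -0.151 in CBE line 2. Ripk1 differed by 0.318 in CBE line 1 against -0.207 in CBE line 2. Mlkl went the other way, with -0.727 in CBE line 1 against 0.524 in CBE line 2. Both lines carry the same genotype label, and what else differs between them was not tested.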

How the results depend on the processing

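With genes of mean FPKM 5 or more, fewer genes were tested, and pathway genes called were 4 in the CBE lines against WT, 3 in the Eµ-deleted line against WT and 2 against the CBE lines, where members called were 2. With only the libraries compared, pathway genes called in the Eµ-deleted line against WT were 6. Leaving out single libraries, members called ranged from 2 to 4, 3 to 4 and 3 to 5 in the CBE lines against WT, in Eµ-deleted cells against WT and in Eµ-deleted cells against the CBE lines, and pathway genes called from 7 to 13, 4 to 15 and 3 to 9. Signs turned for Aim2 in the CBE lines against WT (-0.079 with a pseudocount of 0.1) and, among uncalled differences, without 1 library for Ripk1 (CBE lines against WT, from -0.027 without WT replicate 1 to 0.14 without WT replicate 2, and Eµ-deleted line against WT, from -0.38 without Eµ-deleted replicate 2 to 0.033 without Eµ-deleted replicate 1), Mlkl (CBE lines against WT, from -0.24 without WT replicate 1 to 0.032 without WT replicate 2) and Casp8 (Eµ-deleted cells against CBE lines, from -0.039 without Eµ-deleted replicate 2 to 0.074 without Eµ-deleted replicate 1). The causes were not tested. Of the members' tested differences, 179 of 192 leave-out values and 202 of 210 values under other settings kept sign and side of the threshold. Each member has a single entry, so keeping entries of one symbol apart changes nothing.

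Replicate numbers are shared by all lines, but the labels do not say that they pair libraries. Deviations of same-numbered libraries correlated with r of 0.279 to 0.502 between lines. With the replicate number as a block, members called were 4, 4 and 6 and pathway genes called 17, 16 and 12 in the order above, and Ripk3 passed the threshold in the CBE lines against WT (adjusted p = 0.0124) and, with Tmem173, in Eµ-deleted cells against the CBE lines (0.00806 and 0.0136). Depth limits Pycard, Mb21d1 and, in CBE line 2, Aim2.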
